A study of Mus musculus with 12 samples.

Results

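The livers compared here came from fed male mice of 16 to 18 months with loxP-flanked Foxo3 alleles, either carrying Alb-cre, a recombinase driven by the albumin promoter and so aimed at hepatocytes (labelled knockout, 3 libraries), or free of Cre (floxed control, 3 libraries). These 6 libraries were taken from a series of 12 by their labels. The other 6 came from the same genotypes after an overnight fast. All 4 groups shared the floxed alleles and an ad libitum diet, and the study's design text calls the 3 samples of a group biological replicates. Control and labelled knockout livers therefore differed by the Cre transgene as well as by the state of Foxo3, and effects of the transgene and of the deletion cannot be told apart here. Whole liver was sequenced, so RNA of cells at which Alb-cre was not aimed was counted too.

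FoxO3 is a forkhead transcription factor that insulin, acting through Akt, drives out of the nucleus. In liver the FoxO factors are known for raising gluconeogenic and insulin-sensing genes when insulin is low, and for stress resistance, autophagy and lipid handling. After a meal, when insulin is high, most of the FoxO protein is held in the cytoplasm, and the fed comparison asks how livers labelled as lacking hepatocyte Foxo3 differ from floxed controls in that state.

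The insulin response element, a FoxO binding sequence with the core CAAAACA, whose reverse complement reads TGTTTTG, was searched on both strands in the 250 bases before the RefSeq start of each gene (GRCm38.p6). It was present in 5.56% of 32851 windows. Among the 25 FoxO and insulin-suppressed targets with a window, 4 held it, and these are shown because the values of Irs2, Igfbp1, G6pc and Ccng2 below can be read beside them. The core is in capitals and each stretch has 60 bases, read along the gene's own strand.
Irs2, chr8:11008934-11008993, minus strand: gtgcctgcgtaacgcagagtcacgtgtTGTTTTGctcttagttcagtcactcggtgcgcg
Igfbp1, chr11:7197652-7197711, plus strand: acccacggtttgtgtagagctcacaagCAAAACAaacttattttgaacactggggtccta
G6pc, chr11:101367515-101367574, plus strand: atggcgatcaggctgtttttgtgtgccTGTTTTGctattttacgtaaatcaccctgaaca
Ccng2, chr5:93267513-93267572, plus strand: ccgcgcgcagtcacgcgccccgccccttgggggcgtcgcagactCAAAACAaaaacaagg
A second FoxO sequence, GTAAACA, whose reverse complement reads TGTTTAC, was in 3.17% of all windows and in those of 3 of the 25 targets, Bbc3, Bcl2l11 and Txnip. A match describes letters in a window and is not evidence of binding.

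Fed libraries held 17520058 to 22203047 counts. Values below are CPM, a gene's count relative to the library's total, scaled by TMM factors and listed for libraries 1, 2 and 3 of a group in that order. Differences are log2 of labelled knockout over control. List medians with all libraries are of edgeR differences, and those without a library are of differences in mean log2 CPM. Library fed control 3 lay apart on the first principal component of the fed libraries (41.6% of the variance, at 64.8 against -19.8 to -2.50 for the others). It had the highest summed CPM of the interferon response list (978 against 327 to 509 in the other fed libraries), of infiltrating macrophage markers (363 against 134 to 223) and of T and NK cell markers (18.5 against 4.07 to 9.41), and the lowest of hepatocyte identity genes (63816 against 80601 to 113116). Library fed knockout 1 lay at the far end of the second component (22.7%, at -41.9) and was high in acute phase transcripts, with a median log2 deviation of 0.83 from the other 2 libraries of its group. Most markers of tissues next to the liver were scarce: of the 12 adipose, muscle and pancreas genes, Ins2, Adipoq, Plin1, Acta1, Myh7, Prss2 and Lep had no count in any fed library. Of the 12, 2 were high enough to be tested. The summed CPM of the 12 was 37.9, 31.7 and 15.5 in controls and 13.9, 26.2 and 23.7 in the libraries labelled knockout.

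The gene-level count of Foxo3 (ENSMUSG00000048756, chromosome 10, 42181841 to 42276755, minus strand) did not fall in the libraries labelled knockout. Controls had 45.5, 44.5 and 50.4 CPM, and the libraries labelled knockout 59.4, 58.8 and 62.2. Every library labelled knockout was above every control, with a difference of 0.36 on the log2 scale (SE 0.093; edgeR adjusted p = 0.683; DESeq2 adjusted p = 0.0573). The fasted libraries gave the same order, with 44.3, 39.9 and 38.1 CPM in controls, 46.6, 53.6 and 53.4 in those labelled knockout, and a log2 difference of 0.33 (SE 0.093). The labels do not say which part of the gene was deleted, and a count over the whole gene cannot show whether one part is missing. The measured level did not fall and gave no check of the deletion. The libraries are therefore called "labelled knockout" throughout, and each direction below rests on that label.

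The other FoxO genes overlapped between the groups. Foxo1, the most studied member in liver, stood at 51.7, 42.3 and 44.4 CPM in controls and 48.8, 50.4 and 48.6 in the libraries labelled knockout. Foxo4 stood at 33.1, 30.3 and 23.97 against 26.7, 27.2 and 29.7 CPM, and Foxo6 was too low to be tested. Of the 14 neighbours within 1 Mb of Foxo3 that reached 1 CPM, 3 lay lower in every library labelled knockout, where 5.99% of all tested genes did, each by a small step: Afg1l (-0.32), Cep57l1 (-0.42) and Sesn1 (-0.21), the last a FoxO target of the stress response.

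Across all genes the fed difference was small against the spread of the libraries. edgeR's quasi-likelihood test called 0 of 15862 genes (0%) at an adjusted p of 0.05, with a smallest adjusted p of 0.133; 970 genes had an unadjusted p under 0.05, of which 473 were higher and 497 lower in the libraries labelled knockout. DESeq2 called 33 of the 3311 genes that its filter on low means kept, 14 higher (0.423%) and 19 lower (0.574%). By non-overlap, all 3 libraries labelled knockout were above all 3 controls in 1000 (6.3%) and below in 950 (5.99%). Each count of list members without overlap below is to be read against these shares. Of the 33 genes called by DESeq2, the groups overlapped for Pex11a and did not for the other 32. These calls depended on the setting. DESeq2 called 17 genes without fed control 3, 11 without fed knockout 1 and 5 without both, of which 5, 4 and 1 were among the 33. The 5 called without both were Irs2, Sik1, Tat, Igfbp1 and Lamc3. Adjusted over the genes edgeR tested, DESeq2 called 31, of which 15 were among the 33. The 18 lost there (DESeq2 adjusted p of 0.0507 to 0.112) include Bdh1, Plin2, Elovl5, Fabp2, Acot3, Pex11a, Hp, Orm1, C6, C9 and Cyp8b1, and the 16 gained include Irs2, Sik1, Fst and Efna1. The median log2 difference over all genes was -0.01.

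**Figure D1:**
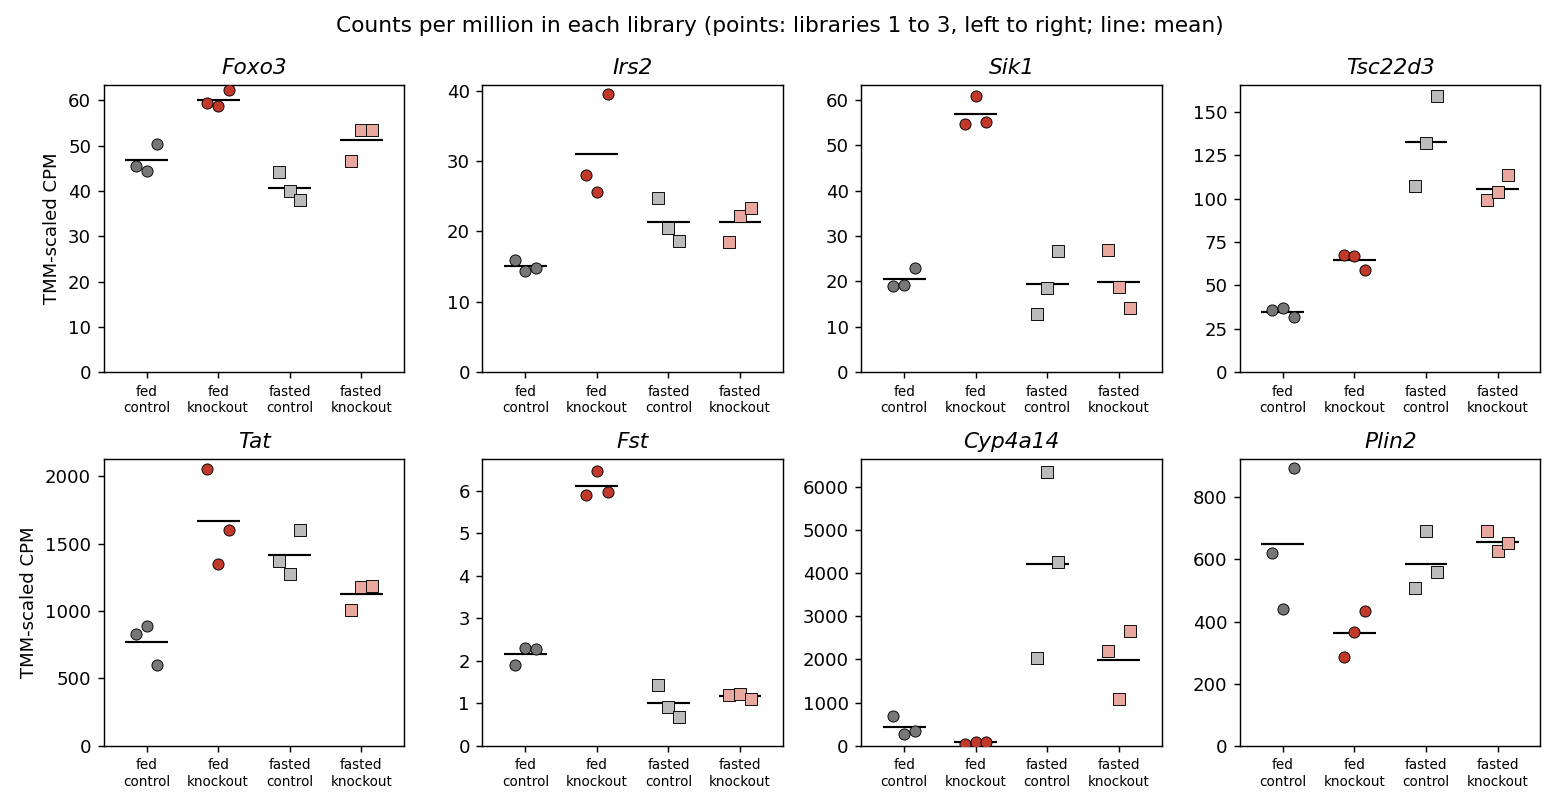
TMM-scaled CPM (vertical axes, from 0) of 8 genes in each of the 12 libraries, by group; points are libraries and lines group means. The fed libraries labelled knockout lie above the fed controls for Foxo3, Irs2, Sik1, Tsc22d3, Tat and Fst and below them for Cyp4a14 and Plin2, while the fasted groups overlap for Irs2, Sik1, Tsc22d3, Fst, Cyp4a14 and Plin2.

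Irs2, Sik1 and Fst were among the genes with the smallest p on the higher side. Irs2, the docking protein that carries the insulin signal from its receptor in hepatocytes, stood at 16.0, 14.4 and 14.8 CPM in controls and 28.1, 25.6 and 39.6 in the libraries labelled knockout. Every library labelled knockout was above every control, and the log2 difference was 1.05 (SE 0.162, 2.06-fold; edgeR adjusted p = 0.133). Of the 15 tested FoxO factors and genes of insulin receptor signalling, 12 were higher, with a list median of 0.06. The 2 without overlap were Irs2 and Foxo3 itself, where 6.3% of all tested genes lay above without overlap. Sik1, a kinase that restrains CREB-driven gluconeogenic transcription, stood at 19.1, 19.1 and 23.1 CPM against 54.8, 60.9 and 55.2. Its difference was 1.48 (SE 0.257; edgeR adjusted p = 0.333), and a fit of the 6 fed libraries alone called it (adjusted p = 0.01), the one gene called there. Fst encodes follistatin, a secreted activin antagonist that the liver releases. It was scarce but tight, at 1.90, 2.29 and 2.27 CPM against 5.91, 6.47 and 5.98 (1.502, SE 0.243; edgeR adjusted p = 0.133). Irs2, Sik1 and Fst lay below the mean level DESeq2's own filter required; when its p-values were adjusted over the genes edgeR tested, it called all 3 (adjusted p = 7e-05 for Irs2, 2.22e-05 for Sik1 and for Fst), the setting that lost 18 other calls.

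The same genes overlapped between the fasted groups. Irs2 differed by -0.002 on the log2 scale between the fasted groups (SE 0.160), Sik1 by 0.045 (SE 0.257) and Fst by 0.22 (SE 0.276). The test of the fed minus the fasted difference called none of them after adjustment, at 1.05 for Irs2 (edgeR adjusted p = 0.386), 1.43 for Sik1 (0.526) and 1.28 for Fst (0.547).

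Glucocorticoid-induced genes were mostly higher in the libraries labelled knockout. Of 13 tested, 11 were higher, the groups did not overlap for 5 (all higher, against 6.3% of all genes), and DESeq2 called 2, with a list median of 0.63. Tsc22d3, the glucocorticoid-induced leucine zipper, stood at 35.7, 36.7 and 31.7 CPM in controls and 67.5, 67.0 and 58.6 in the libraries labelled knockout (0.89, SE 0.134; edgeR adjusted p = 0.133; DESeq2 adjusted p = 5.51e-06). Tat, tyrosine aminotransferase, which breaks down tyrosine and is induced by glucocorticoids and fasting, stood at 826, 889 and 597 CPM against 2058, 1351 and 1605 (1.12, SE 0.189; edgeR adjusted p = 0.168; DESeq2 adjusted p = 5.51e-06). Both groups were tight for Tsc22d3, and the gap between them was wider than either group's range. Fkbp5, the chaperone of the glucocorticoid receptor, differed by 0.63, Zbtb16 by 0.94 and the clock gene Per1 by 0.24, each without overlap and each short of a call by either tool. The list median was 0.67 without fed control 3, 0.69 without fed knockout 1 and 0.66 without both. In fasted livers Tsc22d3 and Tat lay on the other side, both at -0.33, and the list median was 0.08. The fed minus fasted difference was 1.22 for Tsc22d3 (edgeR adjusted p = 0.144) and 1.45 for Tat (adjusted p = 0.201).

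The FoxO and insulin-suppressed targets did not shift one way. Of 29 tested, 10 were higher and 19 lower, the groups did not overlap for 5 on the higher and 4 on the lower side, and the list median was -0.09. The gluconeogenesis list was split too, with 7 of 13 higher and 6 lower, 4 and 1 of them without overlap, and a median of 0.02 that was -0.11 without fed control 3 and fed knockout 1. Pck1, which makes phosphoenolpyruvate, stood at 2007, 1692 and 1421 CPM in controls and 2730, 2129 and 2821 in the libraries labelled knockout (0.59, SE 0.229; edgeR adjusted p = 0.806). G6pc, which releases free glucose, stood at 222, 288 and 271 against 292, 793 and 423 CPM (0.95, SE 0.434; edgeR adjusted p = 0.806), and its lowest library labelled knockout lay just above its highest control. Klf15, a factor that supports amino acid breakdown, differed by 0.37. Pcx, pyruvate carboxylase, was the gluconeogenic gene lower without overlap (-0.23). On the lower side of the FoxO targets were Txnip (-0.52), an inhibitor of thioredoxin, Cited2 (-0.32), Pnpla2 (-0.25), the triglyceride lipase of lipid droplets, and Sesn1. Lower still were Cdkn1a (-1.72), the lowest of the list, and Pdk4 (-1.58), called by neither tool. Ccng2, a cyclin that slows division, differed by -0.44, with 10.7, 14.4 and 15.8 CPM in controls and 9.46, 9.16 and 11.5 in the libraries labelled knockout.

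The insulin-suppressed binding protein Igfbp1 depended on 1 control library. Control values were 11.7, 5.14 and 41.8 CPM, against 23.9, 23.9 and 29.7 in the libraries labelled knockout, so fed control 3 alone was above them. Its difference was 0.40 (SE 0.627) with all libraries, and DESeq2 called it at 1.61 without fed control 3 (adjusted p = 0.00317). Of the 4 targets with the insulin response core, then, Irs2 and G6pc did not overlap and were higher, and Igfbp1 and Ccng2 overlapped.

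Fatty acid breakdown was lower as a block in the libraries labelled knockout. All 24 genes of mitochondrial fatty acid oxidation and ketogenesis were lower, at log2 differences of -0.027 to -0.49, where 8248 of all 15862 tested genes were lower. The groups did not overlap for 14 of the 24, all lower, against 5.99% of all genes. The list median was -0.24, and -0.22 without fed control 3 and fed knockout 1. Fed control 1 was above the other controls for 22 of the 24 genes (median log2 deviation 0.17). Fed knockout 1 was below its group for 22 (-0.17). Fed control 3 deviated by -0.061, so leaving it out does not remove the highest control. Leaving out fed control 3 put 19 of the 24 below, where 1975 of all genes were, and leaving out fed knockout 1 put 15 below, where 1484 were; leaving out a library can only keep or raise such counts. Bdh1, which converts acetoacetate to hydroxybutyrate, stood at 255, 219 and 255 CPM against 146, 188 and 196, and was the one member called by DESeq2 (-0.46, SE 0.126; DESeq2 adjusted p = 0.0402). That call was lost without fed control 3, without fed knockout 1, without both, and when adjusted over the genes edgeR tested (DESeq2 adjusted p of 0.098 to 1). Small differences with no overlap were seen in the dehydrogenases Acadm (-0.24), Acadl (-0.25) and Hadh (-0.33), in the trifunctional protein subunits Hadha (-0.23) and Hadhb (-0.28), and in Cpt1a (-0.18), the gate of fatty acid entry into mitochondria. In fasted livers the list median was -0.03, and the groups did not overlap for 1 gene on each side.

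Peroxisomal and omega oxidation showed larger steps. Of 16 genes, 14 were lower, 7 without overlap. Fed control 1 was above the other controls for 15 of the 16 (median log2 deviation 0.27), and fed knockout 1 below its group for 13 (-0.25). DESeq2 called 4 of the 16 genes. Of these, Cyp4a14, Acaa1b and Aldh3a2 were also called when adjusted over the genes edgeR tested. Only Cyp4a14 of these was still called without fed control 3, and none was without fed knockout 1 or without both. Without both, the differences in mean log2 CPM were -2.23 for Cyp4a14, -0.73 for Acaa1b and -0.55 for Aldh3a2. Cyp4a14, a cytochrome P450 that oxidises the far end of fatty acids and a sensitive target of the nuclear receptor PPAR alpha, stood at 683, 272 and 350 CPM in controls and 48.5, 90.2 and 93.4 in the libraries labelled knockout. The controls varied widely among themselves, yet none came down to the libraries labelled knockout. The difference of -2.49 (SE 0.520) was short of a call by edgeR (adjusted p = 0.636) and called by DESeq2 (adjusted p = 0.00164). Acaa1b, a peroxisomal thiolase, stood at 1804, 1202 and 1996 CPM against 535, 906 and 873 (-1.11, SE 0.272; DESeq2 adjusted p = 0.00985). Aldh3a2, the fatty aldehyde dehydrogenase, stood at 796, 490 and 912 against 261, 434 and 421 CPM (-0.98, SE 0.235; DESeq2 adjusted p = 0.00985). Pex11a, which divides peroxisomes, was called by DESeq2 at -0.94 although its groups overlapped. Reads of Cyp4a14 and Cyp4a10, of Acaa1b and Acaa1a, and of the Acot genes can be shared between near-identical copies.

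The list of PPAR alpha targets, which also holds Cyp4a14, lay mostly on the same side. Of 15 tested, 13 were lower and 6 did not overlap, Cyp4a14 among both, with a list median of -1.01. In mean log2 CPM the median was -0.56 without fed control 3, -0.71 without fed knockout 1 and -0.37 without both. These differ from the first in measure as well as in libraries. Acot3, an acyl-CoA thioesterase, stood at 44.0, 34.5 and 44.0 CPM in controls and 3.19, 13.2 and 12.8 in the libraries labelled knockout (-2.07, SE 0.565; DESeq2 adjusted p = 0.0402). Vnn1, a pantetheinase, differed by -1.01 and Acot4 by -0.93, both without overlap. Ppara itself stood at 182, 137 and 154 against 128, 144 and 159 CPM, and its groups overlapped (-0.13). Pdk4, which spares glucose by inhibiting pyruvate dehydrogenase, was high in fed control 3 (30.5 against 11.1 and 5.14 CPM in the other controls) and stood at 3.87, 6.69 and 5.11 in the libraries labelled knockout.

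Storage and handling of fat were lower too. All 18 lipid droplet proteins and lipases were lower, 6 without overlap, with a list median of -0.34, and -0.21 without fed control 3 and fed knockout 1. Plin2, the main coat protein of hepatocyte lipid droplets, stood at 620, 439 and 894 CPM in controls and 284, 368 and 435 in the libraries labelled knockout (-0.84, SE 0.230; DESeq2 adjusted p = 0.0402). Its groups nearly met, at fed control 2 and fed knockout 3. Fed control 3 was its highest library, and the difference was -0.55 without it and -0.38 without fed knockout 1 as well. Cidec, which fuses droplets, differed by -1.16 (SE 0.401) and Fitm1, which buds them from the endoplasmic reticulum, by -0.68 (SE 0.216). Cd36, a fatty acid receptor, stood at 182, 124 and 307 against 82.7, 121 and 120 CPM. The intestinal-type binding protein Fabp2 stood at 98.7, 88.1 and 111 against 38.7, 70.1 and 65.5 CPM (-0.77; DESeq2 adjusted p = 0.0402), and Elovl5, an elongase of polyunsaturated fatty acids, differed by -0.84 (DESeq2 adjusted p = 0.0381). Elovl5 too was highest in fed control 3, at 1193 CPM against 628 and 763 in the other controls, and differed by -0.55 without it and by -0.37 without both libraries. The list for fatty acid synthesis had 13 of 18 genes lower, 3 without overlap; Fasn, the synthase, overlapped (-0.30). In fasted livers Plin2 differed by 0.17, Cidec by 0.69 and Cd36 by 0.75.

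Markers of stellate cells, which store retinyl esters in droplets of their own, were lower in the same libraries. Of 12 tested 11 were lower, and Reln, Lhx2 and Ecm1 did not overlap. Their list median was -0.61, and -0.40 without fed control 3, -0.38 without fed knockout 1 and -0.098 without both. The summed CPM of the 12 was 453, 469 and 658 in controls and 248, 428 and 370 in the libraries labelled knockout, with no overlap, and none of the markers was at 0 in all fed libraries. The part of these cells in the lipid droplet result was not tested.

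**Figure D2:**
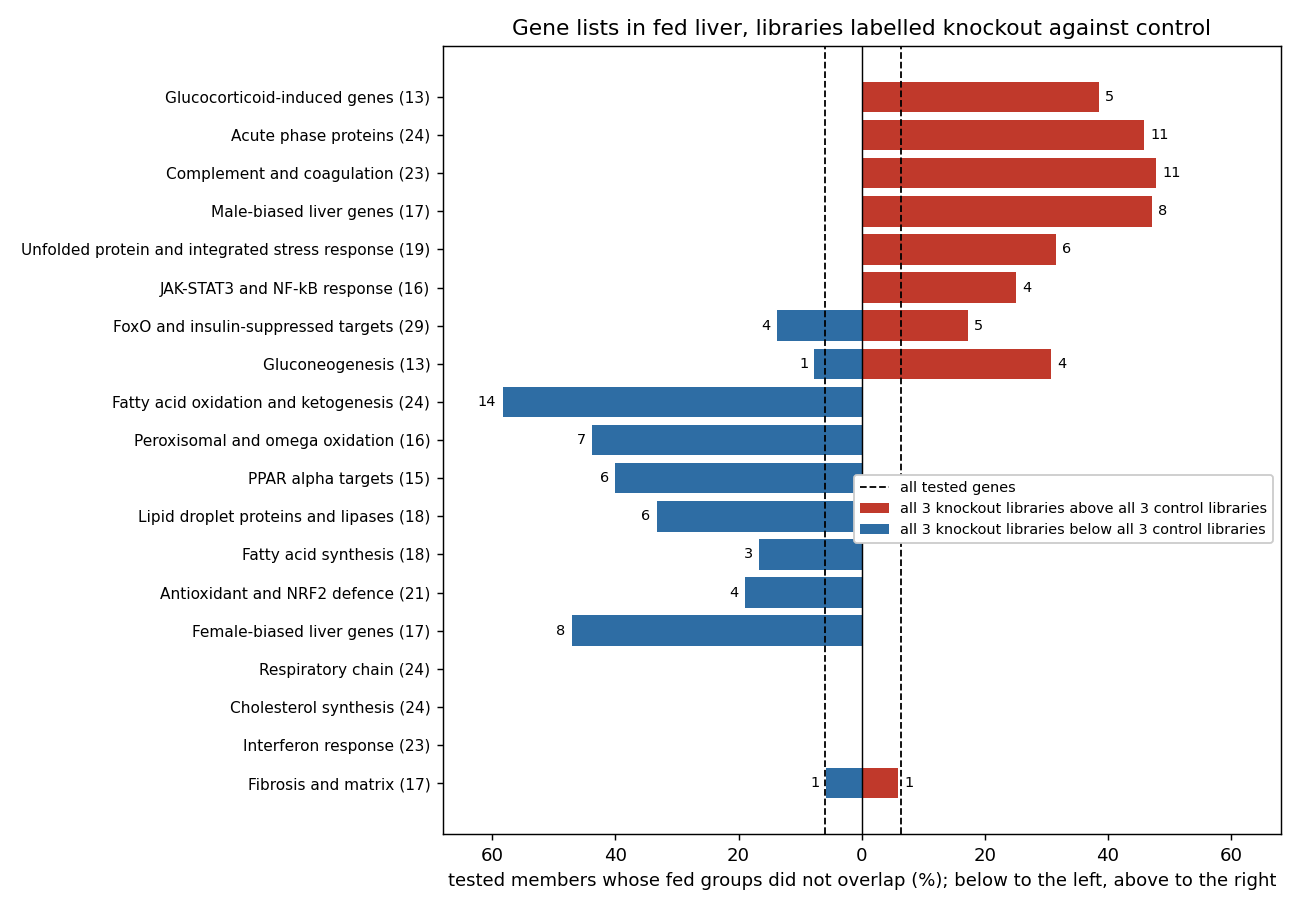
Share of the tested members of 19 gene lists (number tested in parentheses) for which all 3 fed libraries labelled knockout lay above (right, red) or below (left, blue) all 3 fed controls; the horizontal axis is in percent, numbers give genes, and dashed lines mark the shares over all tested genes. Fatty acid oxidation and ketogenesis reaches 14 genes below and none above, and acute phase and complement each reach 11 above and none below.

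Secreted proteins of the acute phase were higher. Of 24 tested, 22 were higher, 11 did not overlap and DESeq2 called 3, of which Hpx alone was also called when adjusted over the genes edgeR tested, with a list median of 0.79. Hpx, the plasma carrier of haem, stood at 2142, 2477 and 2583 CPM in controls and 8030, 4784 and 4109 in the libraries labelled knockout (1.23, SE 0.325; DESeq2 adjusted p = 0.014). Haptoglobin, Hp, which binds free haemoglobin, stood at 1980, 2022 and 2554 against 5877, 4804 and 3628 CPM (1.13, SE 0.353; DESeq2 adjusted p = 0.0499). Orm1, orosomucoid, stood at 410, 404 and 339 against 1104, 512 and 771 CPM (1.05, SE 0.306; DESeq2 adjusted p = 0.0402). For these 3 genes the library fed knockout 1 was the highest. The serum amyloid genes depended on it most: Saa1 stood at 37.2, 117 and 75.9 CPM in controls and 2108, 105 and 328 in the libraries labelled knockout, and Saa2 at 19.5, 48.5 and 49.4 against 1844, 26.5 and 94.4. Without fed knockout 1 the list median was 0.56, and the libraries labelled knockout lay above the controls for 11 of 24 genes, where they did for 1555 of all 15862. Lbp, the binding protein of bacterial lipopolysaccharide, was even within each group, at 66.1, 66.6 and 65.8 against 98.9, 124 and 118 CPM (0.78, SE 0.216; edgeR adjusted p = 0.683; DESeq2 adjusted p = 0.0503).

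Complement and coagulation genes, also made by hepatocytes, lay on the same side. Of 23 tested, 21 were higher and 11 did not overlap, with a list median of 0.47 that was 0.15 without fed control 3 and fed knockout 1. C9, a pore-forming component of the membrane attack complex, stood at 331, 312 and 278 CPM in controls and 910, 428 and 641 in the libraries labelled knockout (1.10, SE 0.336; DESeq2 adjusted p = 0.0435). C6, another component, stood at 124, 153 and 78.1 against 311, 236 and 216 CPM (1.11, SE 0.345; DESeq2 adjusted p = 0.0457). C3, the hub of the cascade, stood at 6440, 5811 and 5228 against 12528, 6834 and 8240 CPM (0.66; DESeq2 adjusted p = 0.178). The JAK-STAT3 and NF-kB response list, upstream of these genes, was mixed: 11 of 16 were higher and 5 lower, 4 did not overlap (all higher), and the median was 0.14 in fed and -0.14 in fasted livers. The lowest member was Myc (-2.80), whose groups overlapped. Of the 4 without overlap, Stat3, which carries interleukin 6 signals to acute phase genes, stood at 92.4, 94.8 and 87.2 against 178, 128 and 165 CPM (0.78, SE 0.258; edgeR adjusted p = 0.795). Il6ra, its receptor chain, differed by 0.66 and Il1r1 by 1.09, both without overlap. In fasted livers the list medians were 0.16 for acute phase and 0.08 for complement and coagulation.

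Some markers of neutrophils were also higher in the libraries labelled knockout, at very low levels. Of 9 markers 5 were tested, and 4 of those did not overlap: S100a8, S100a9, Cxcr2 and Mpo. Mpo had no count in any fed control and 0.157, 0.731 and 0.808 CPM in the libraries labelled knockout. It passed the filter only through groups other than the fed controls, so its lack of overlap is no separate evidence. The untested markers Elane (counts of 1, 3 and 2 against 1, 7 and 5), Retnlg (4, 4 and 1 against 4, 5 and 5) and Mmp8 (1, 2 and 2 against 5, 6 and 2) overlapped. The summed CPM of all 9 was 6.32, 5.10 and 9.22 in controls and 8.10, 14.8 and 11.7 in the libraries labelled knockout, so the groups overlapped in sum, and Ly6g had no count in any fed library. Library by library they ran opposite to the acute phase genes. In fed knockout 1, the highest for acute phase genes, all 5 markers lay below the other libraries of the group (median deviation -0.79), and in fed knockout 2 all 5 lay above (0.64) while the acute phase genes had a median deviation of -0.66. In a bulk sample a change in the number of cells of a type and one in the RNA per cell cannot be told apart.

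Sex-biased liver genes separated the groups in both directions. All 17 male-biased genes, which pulses of growth hormone maintain, were higher in the libraries labelled knockout, with a list median of 0.75. The groups did not overlap for 8 (47.1%, against 6.3% of all tested genes above). C6 is among them and is counted with complement too. Mup20, a major urinary protein, stood at 707, 997 and 721 CPM in controls and 1954, 1628 and 1555 in the libraries labelled knockout (1.08, SE 0.515; edgeR adjusted p = 0.806). Serpina1e, a member of the alpha-1 antitrypsin cluster, varied widely within each group, at 1291, 2514 and 135 against 9739, 3632 and 2616 CPM. Of 17 female-biased genes 14 were lower and 8 did not overlap, all lower (47.1%, against 5.99% of all tested genes below). Acot3, counted with the PPAR alpha targets too, is among the 8. The 3 higher members overlapped, and the largest of their differences was 3.57. Cyp2a4, a steroid hydroxylase of female liver, stood at 18.5, 6.97 and 65.3 against 4.76, 1.07 and 3.12 CPM (-3.33, SE 1.04; edgeR adjusted p = 0.795). Cyp2b9 stood at 48.8, 10.7 and 178 against 0.314, 1.07 and 9.85 CPM. Fed control 3 had the lowest value of Hsd3b5 (0.136 CPM against 26.3 and 67.5 in the other controls) and the highest of Cyp2a4 and Cyp2b9. Without it the list medians were 0.49 for male-biased and -0.58 for female-biased genes, and 8 of the 17 male-biased genes were without overlap, where 2055 of all 15862 genes were. After the fast the order of the genotypes was the other one for male-biased genes: 15 of 17 were lower in the libraries labelled knockout, 7 without overlap, with a median of -0.86. The fed minus fasted difference of Mup20 was 2.49 (edgeR adjusted p = 0.547). Mup and Serpina1 genes belong to clusters of near-identical copies, and counts of single members are uncertain.

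Several genes outside those lists were without overlap between the groups. Phlda1, a pleckstrin-homology protein, had the lowest DESeq2 adjusted p on the lower side (2.01e-05), with 67.6, 174 and 85.3 CPM in controls and 34.0, 18.9 and 40.0 in the libraries labelled knockout (-1.81, SE 0.361; edgeR adjusted p = 0.636). Fzd4, a Wnt receptor, stood at 82.7, 70.3 and 70.9 against 51.5, 52.3 and 56.3 CPM (-0.48, SE 0.105; DESeq2 adjusted p = 0.0127). In fasted livers Fzd4 lay on the other side, at 0.31 without overlap, and the fed minus fasted difference was -0.79 (edgeR adjusted p = 0.201). Bhlhe40, a repressor of the circadian clock, was higher in both feeding states: it stood at 211, 228 and 213 against 291, 298 and 302 CPM when fed (0.45, SE 0.113; DESeq2 adjusted p = 0.0181) and differed by 0.41 when fasted. Tob2, an antiproliferative adaptor, stood at 62.0, 62.9 and 57.4 against 93.3, 90.6 and 89.4 CPM (DESeq2 adjusted p = 0.00469). Slc38a2, an amino acid transporter, differed by 0.93, and Nnmt, which methylates nicotinamide, by 1.39, both called by DESeq2 at an adjusted p of 0.00985. Without fed control 3 and fed knockout 1 the differences in mean log2 CPM were 0.75 for Slc38a2 and 0.78 for Nnmt. Retsat, retinol saturase, stood at 419, 281 and 289 against 110, 185 and 205 CPM, was called by DESeq2 (adjusted p = 0.0166), and was lower without overlap in fasted livers as well (-0.64). Cyp8b1, the sterol hydroxylase that sets the share of cholic acid among bile acids, stood at 164, 263 and 204 against 63.9, 132 and 95.8 CPM (-1.11, SE 0.342; DESeq2 adjusted p = 0.0402). DESeq2's calls of Fzd4, Bhlhe40, Tob2, Slc38a2, Nnmt and Cyp8b1 were lost when fed control 3 or fed knockout 1 was left out. Phlda1 kept its call without either one, Retsat only without fed control 3, and neither without both. Efna1, a membrane ligand of Eph receptors, stood at 34.9, 18.5 and 27.6 CPM in controls, below the 51.2 to 81.3 of the libraries labelled knockout (1.31, SE 0.239; edgeR adjusted p = 0.41), and was lower without overlap in fasted livers (-0.43).

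**Figure D3:**
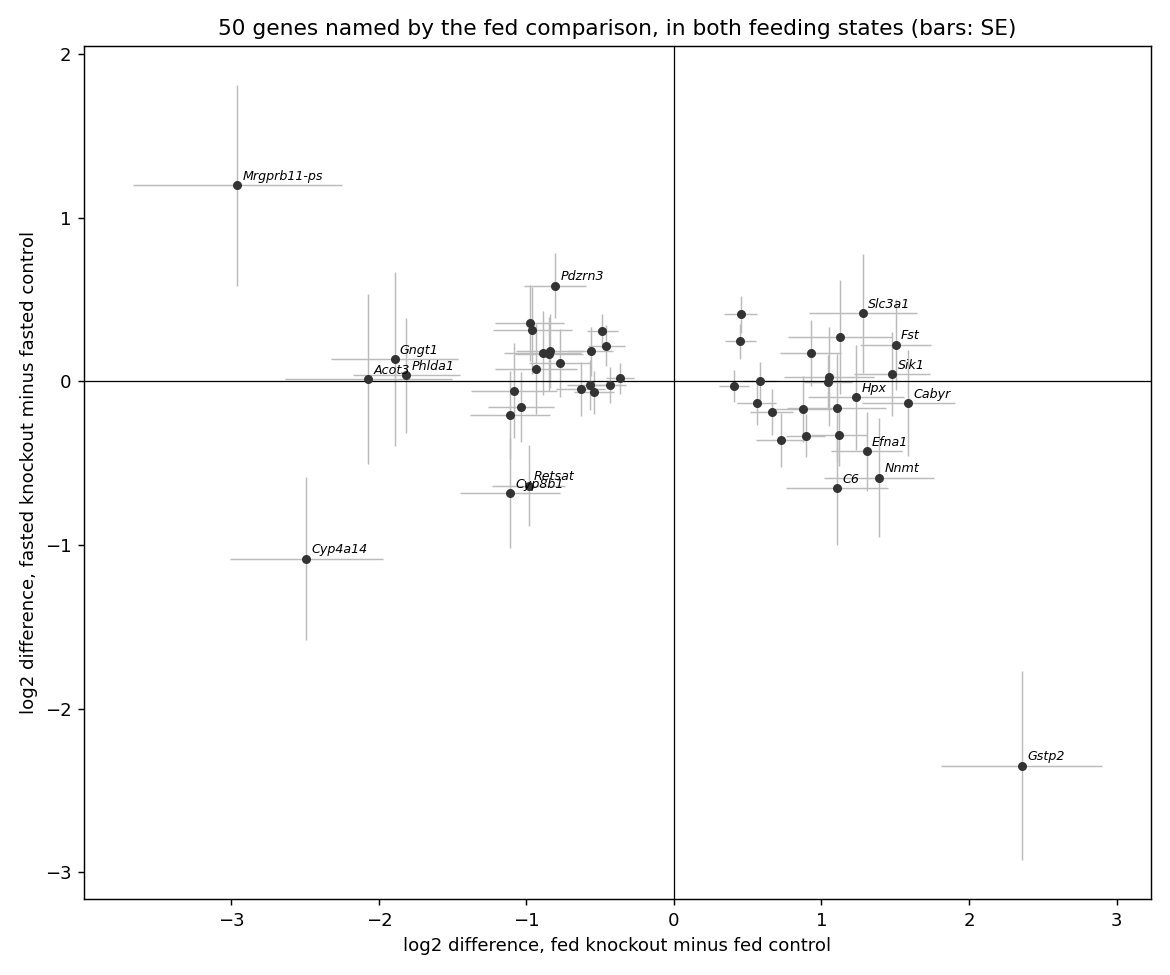
Log2 difference of libraries labelled knockout minus control in fed livers (horizontal) and in fasted livers (vertical) for 50 genes named by the fed comparison; bars are standard errors. The genes were chosen by their fed values, so their distance from 0 on the horizontal axis is a result of that choice; 19 of the 50 lie on the same side of 0 in fasted livers.

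The fasted comparison shares no library with the fed one. Of the 1000 genes without overlap on the higher side in fed livers, 90 were also without overlap and higher in fasted livers and 63 were without overlap and lower, where 1082 and 1142 of all 15862 genes were. Of the 950 on the lower side, 58 were lower and 62 higher without overlap in fasted livers. Among the 50 named genes, 19 had the same sign in both states; Retsat, Bhlhe40 and Fam135a were without overlap and in the same direction in both.

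Lists of other liver functions gave mixed counts. Of 21 antioxidant and NRF2 defence genes 19 were lower and 4 did not overlap, with a median of -0.16. Gstm1, a glutathione transferase, stood at 1598, 1403 and 2880 CPM in controls and 992, 1373 and 1115 in the libraries labelled knockout (-0.76, SE 0.297; edgeR adjusted p = 0.806), and Srxn1, which repairs oxidised peroxiredoxins, at 42.5, 42.7 and 105 against 34.7, 38.1 and 37.7 CPM. Fed control 3 was the highest library for both, and without it the difference was -0.38 for Gstm1 and -0.21 for Srxn1. Of 14 iron handling genes 8 were higher and 6 lower. Both ferritin chains, which store iron, were lower without overlap: Fth1 stood at 1467, 1320 and 1669 against 1159, 1207 and 1161 CPM (-0.34, SE 0.148), and Ftl1 differed by -0.32 (SE 0.162). Ferritin genes have processed copies elsewhere in the genome, and neither was called.

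Of 19 genes of bile acid synthesis and transport 13 were higher and 6 lower, 4 and 2 of them without overlap. Beside Cyp8b1, Abcc3, a basolateral export pump, was lower at 437, 316 and 441 against 237, 305 and 310 CPM (-0.49, SE 0.161). Fgfr4, the hepatocyte receptor of intestinal FGF15, was higher at 42.6, 39.1 and 31.0 against 58.4, 47.7 and 46.5 CPM (0.44, SE 0.139). Among glycogen genes Ppp1r3c, which targets a phosphatase to glycogen, stood at 39.4, 39.1 and 29.0 against 47.2, 55.8 and 51.5 CPM (0.53, SE 0.156), whereas the branching enzyme Gbe1 (-0.43) and Ugp2 (-0.34), which makes UDP-glucose, were lower without overlap. Apart from Cyp8b1, none of the genes named here was called by either tool.

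The unfolded protein and integrated stress response list had 16 of 19 genes higher and 6 without overlap, and its median of 0.19 was 0.042 without fed control 3 and fed knockout 1. Hspa5, the chaperone BiP, stood at 397, 371 and 366 against 571, 404 and 402 CPM, with fed knockout 1 far above the other libraries. Asns, asparagine synthetase, stood at 0.142, 0.421 and 0.363 against 12.1, 0.731 and 0.431 CPM, and its difference of 3.81 (SE 1.36) was 0.89 without that library. Among factors of hepatocyte identity Foxa2, a pioneer factor, stood at 21.3, 39.1 and 24.1 against 15.2, 15.7 and 17.49 CPM (-0.81, SE 0.212; edgeR adjusted p = 0.683), and Hnf4a, the central hepatocyte regulator, at 556, 490 and 382 against 622, 572 and 643 CPM (0.36, SE 0.179). DESeq2's filter on low means gave Foxa2 no adjusted p, and its adjusted p for Hnf4a was 0.495.

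Groups of genes that did not separate also need their values. The 24 subunits of the respiratory chain had a median of -0.07, between -0.15 and 0.041, and no gene was without overlap; leaving out fed control 3 put 19 of the 24 below, where 1975 of all 15862 genes were. Of 24 cholesterol synthesis genes 22 were higher with a median of 0.22, and none was without overlap. Autophagy and lysosome genes were split, 10 higher and 10 lower, with a median of -0.01. The interferon response genes had a median of -0.67 with all libraries and 0.44 without fed control 3, and fibrosis and matrix genes went from -0.76 to 0.007. The values without a library are of differences in mean log2 CPM, so the measure changed as well. The interferon median was 0.31 without fed control 3 and fed knockout 1, so its sign depended on fed control 3. The fibrosis median was -0.015 without both, and so was near 0 whenever fed control 3 was left out. The plot of list medians shows this beside the lists that kept their side.

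**Figure D4:**
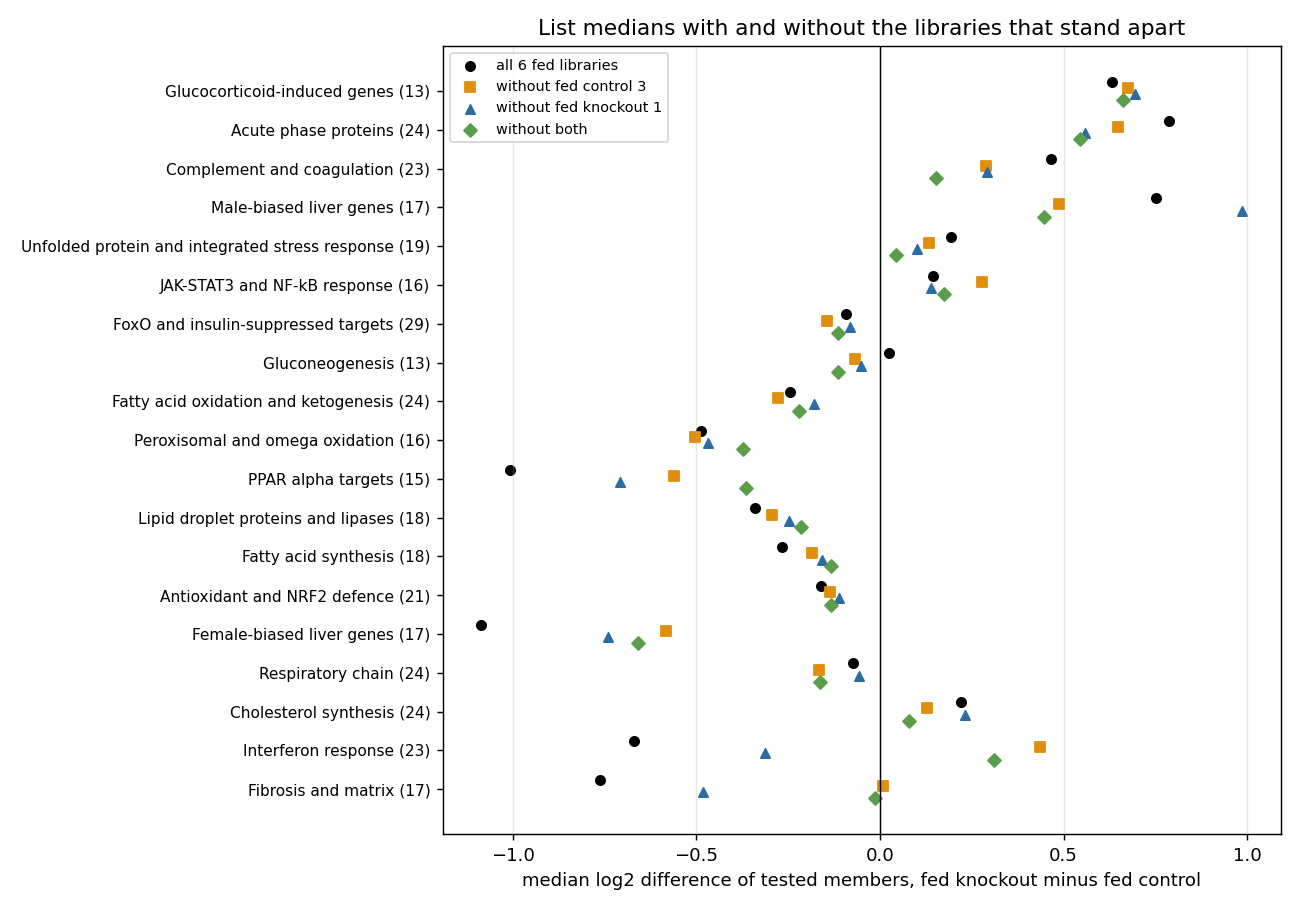
Median log2 difference (fed libraries labelled knockout minus fed control, horizontal axis) of the tested members of 19 gene lists with all 6 fed libraries and without fed control 3, fed knockout 1 or both. Medians with all 6 are of edgeR differences, and the others are of differences in mean log2 CPM. Glucocorticoid-induced genes stay between 0.63 and 0.69 in all 4, while the interferon response list goes from -0.67 to 0.44 when fed control 3 is left out.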

How the data were processed

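Poly(A) RNA of whole liver was sequenced from strand-specific libraries, per the labels' protocols. The submitters' processing notes name bcl2fastq 2.19, Trimmomatic 0.38, HISAT2 2.1.0, featureCounts 1.6.3, DESeq2 1.24.0 and the build mm10. The authors deposited a table of raw counts for 55487 genes and a table of TPM values. The deposited TPM values were not tested. Counts of all 12 libraries were fitted with edgeR 4.0.16 (R 4.3.3): TMM factors, filterByExpr (15862 genes left), group means, robust quasi-likelihood F test, 2-sided, Benjamini-Hochberg over all tested genes, threshold 0.05. DESeq2 1.42.0 and limma-voom (limma 3.58.1) were alternatives. On simulated counts of the fed comparison over 15862 genes, 84% of genes changed 2-fold and 99% of those changed 4-fold were recovered. Of the 190 genes called there, 7 were false. The changed genes were drawn above a floor on mean CPM, each gene varied on its own, and no simulated library stood apart. These shares check the code and do not give the power of the real comparison.

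Genes named are the FoxO factors; the 15 higher and 15 lower with the smallest p among non-overlapping genes with at least 1 CPM and a settled symbol; genes that DESeq2 called; members of 51 lists; and neighbours of Foxo3. Genes first called in an alternative, such as Lamc3, were named after their values were seen. Members and lists were chosen with earlier results of these data known. Lists are described by counts and medians, with no test. Some genes belong to more than 1 list, so the lists are not separate from each other. Replicates differed beyond sampling noise (chi-square per degree of freedom of 19.5 to 89.5), so none was counted as a duplicate. Promoter windows are RefSeq's, matched by symbol.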

Additional observations from a re-analysis of the deposited data

Results flagged for a closer look

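Rpl29, a protein of the large ribosomal subunit, was flagged because its fed and fasted genotype differences differed by the test of that difference. The fed groups overlapped, with 87.7, 93.6 and 78.95 CPM in controls and 98.6, 86.2 and 76.3 in the libraries labelled knockout, a log2 difference of 0.005 (SE 0.212). Fasted controls stood at 4.10, 5.997 and 3.29 CPM, and fasted libraries labelled knockout at 84.9, 76.5 and 48.2. The fed minus the fasted difference was -3.98 (SE 0.323; edgeR adjusted p = 0.000643), and the low values were those of the fasted controls. Rpl29 has near-identical copies elsewhere in the genome, so its counts are uncertain. In this flagging step, groups of 3 were not examined for outlying samples. The fed libraries that stand apart are described above, together with results without them.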

How the results depend on the processing

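The fed comparison had 0 calls by edgeR with RLE or upper-quartile factors, with a floor of 1 CPM, and by limma-voom. Without a filter on low counts edgeR called 5 genes (Irs2, Tat, Tsc22d3, Fst and 1700045H11Rik) and with the 6 fed libraries alone 1 (Sik1). DESeq2 called 33. Leaving out 1 fed library at a time gave 0 to 1 fed calls by edgeR; the 1 was Myc, without fed control 1, which stood at 2.14 CPM there, 26.8 and 21.7 in the other controls and 1.62 to 3.03 in the libraries labelled knockout. Added after seeing the data, DESeq2 called 17 genes without fed control 3, 11 without fed knockout 1, 5 without both, and 31 when adjusted over the genes edgeR tested. The fasted comparison had 5 calls by edgeR, 13 without the filter, 42 by DESeq2, 2 by limma-voom, 1 with the fasted libraries alone and 3 to 6 with a fed library left out; the fed minus fasted difference had 1, 5 without the filter, 60 by DESeq2 and 1 to 2 with a fed library left out. The cause of these differences was not tested.

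With the replicate block edgeR called 0 fed and 3 fasted genes and 1 for their difference. Deviations of same-numbered fed samples correlated at -0.102, -0.105 and -0.182, so the numbers do not pair the samples.

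Of 1876 values of 99 named genes under the alternatives, 6 changed sign. Leaving out 1 fed library at a time took Foxo4 from -0.19 to 0.040, Igfbp1 from -0.047 to 1.61 and Bcl2l11 from -0.39 to 0.040. Without both libraries that stand apart Bcl2l11 was at 0.061, and DESeq2 gave 0.044 without fed control 3 and 0.061 without both. With 72 the gene passed the threshold where it had not, mostly by DESeq2, and the other 1798 kept their sign and side. Genes without overlap numbered 2055 above and 1975 below without fed control 3, 1555 and 1484 without fed knockout 1, and 3058 and 2943 without both, since fewer libraries overlap less often. With 3 libraries a group, low genes such as Mpo rest on few counts.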
